A study of Schmidtea mediterranea with 48 samples.

Results

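The late transcripts are 200 of the 26563 transcripts counted in regenerating tail fragments of the planarian Schmidtea mediterranea whose level in control animals passed a set ratio to fresh wounds at 48 hours post amputation (hpa) and stayed under lower limits at 6 and 24 hpa. They were chosen from the control libraries alone. For each transcript the normalised read counts (CPM, counts scaled to the column total of the library) were averaged over the 3 libraries of a control group, 0.5 was added, and the log2 ratio to 0 hpa was averaged over the control sets of 2 experiments. A late transcript had at least 1 CPM in some control group, an average log2 ratio under 0.6 at 6 hpa, under 0.5 at 24 hpa and of at least 0.8 at 48 hpa. Of the 16183 transcripts with enough CPM, 246 met the rule, and the 200 with the highest ratio at 48 hpa were kept.

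Planarians rebuild lost tissue from dividing stem cells called neoblasts. Cutting first switches on wound-induced genes, and over the following days progeny of the neoblasts build a blastema, the bud in which missing tissue forms. Muscle cells of planarians also give off the signals that tell new tissue where it lies. The transcription factor myoD is needed for their longitudinal fibres, and follistatin (fst), a gene switched on at wounds, makes a secreted protein that blocks Activin.

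The animals were of strain CIW4, and polyadenylated RNA was taken from the cut face of tail pieces at 4 times, 0, 6, 24 and 48 hpa, with 5 wounds pooled in each of the 3 libraries of a group. In the 10-feeding experiment (10F), animals were fed double-stranded RNA against myoD, or against the Caenorhabditis elegans gene unc-22 as a control, 10 times in 5 weeks per the sample labels, while the series text gives 8 feedings. In the 6-feeding experiment (6F), animals were fed RNA against fst, or against unc-22, 6 times in 3 weeks. This gave 48 libraries in 16 groups, each experiment with its own controls. The labels do not say whether the 3 libraries of a group came from separate animals, so each p-value reflects library-to-library spread alone, and that spread may be technical. Total counts per library lay between 7169717 and 22065480, with a median of 15946485.

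The files pair no identifier with a gene name, so the late transcripts are given by identifier, without roles or sequences, and the levels of myoD and fst themselves and of cell type markers were not analysed here. No transcript lengths were used here, so CPM are compared between libraries and not between transcripts. In bulk RNA, fewer cells of a type and less RNA per cell cannot be told apart.

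Several libraries stood apart. The 9 libraries of the 6F controls at 48 hpa, of fst RNAi at 24 hpa and of fst RNAi at 48 hpa differed from the other 39 without overlap in 23 transcripts, 22 higher and 1 lower, and in 5 of these by at least 2-fold. All 5 were late transcripts, and 8 late transcripts in all separated the 9 libraries from the 39. The label of replicate 1 of fst RNAi at 48 hpa notes human contamination. In that library 399 of the 16183 transcripts were at least 2-fold above both other libraries of the group and 627 at least 2-fold below both, against at most 199 transcripts in either direction in any other library. Among the late transcripts, 7 were that far above and 3 that far below in this library. Several but not all counts after fst RNAi at 48 hpa are also given without this library, and comparisons across the 9 libraries without the 8 separating transcripts.

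The clearest case of the library split was dd_Smed_v4_7642_0_1, which had the highest average ratio of all, 2.56 on the log2 scale. In the 6F experiment it had 31.1, 22.2 and 33.0 CPM after fst RNAi at 24 hpa and 10.7, 28.3 and 29.5 CPM after fst RNAi at 48 hpa. The 6F controls had 0.716, 0.118 and 0.696 CPM at 24 hpa and 34.3, 38.7 and 25 CPM at 48 hpa. In the 10F experiment it stayed at or under 0.440 CPM in all 24 libraries. Its log2 ratio of 48 over 0 hpa was 5.01 in the 6F controls and 0.11 in the 10F controls. For 7 of the 8 separating transcripts the ratio in the 10F controls was under 0.2. Between 0 and 48 hpa in the 6F controls, time and the library split cannot be told apart for any transcript.

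In the controls, whose values chose the transcripts and are a description with no test, the average log2 ratio of the late transcripts at 48 hpa ran between 0.82 and 2.56 with a median of 0.91, and 54 transcripts reached at least 1. The median was 0.06 at 6 hpa and 0.38 at 24 hpa, and 85 transcripts already stood at 0.4 or more at 24 hpa, against 34 under 0.2. Most of the late transcripts were thus part of the way up at 24 hpa, and the label late holds for the larger part of the change, not for its start. At 48 hpa, 111 reached a ratio of 0.8 in both control sets, 17 in the 10F controls only and 72 in the 6F controls only. Second to dd_Smed_v4_7642_0_1 was dd_Smed_v4_28887_0_1, with an average ratio of 1.88, and it had a ratio of 1.61 in the 10F controls and 2.16 in the 6F controls. Just inside the limit of 200 were dd_Smed_v4_7508_0_1 and dd_Smed_v4_11624_0_1, both at 0.825, and just outside it dd_Smed_v4_3001_0_1 at 0.824 and dd_Smed_v4_724_0_1 at 0.823.

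The column totals themselves carried part of this ratio. With them, the median log2 change of all transcripts tested at 48 over 0 hpa was 0.15 in the 10F controls and 0.17 in the 6F controls, against -0.03 and 0.01 with the trimmed mean (TMM) scaling used for all tests. With TMM-scaled CPM in the rule, 108 transcripts met it, of which 67 were among the 200. The tests below and their log2 fold changes use TMM scaling. Library medians, ratios of CPM, overlap of libraries and folds against a floor use column totals. With column totals, the change from 0 to 48 hpa differed from control by a median over all transcripts of -0.09 after myoD RNAi. After fst RNAi this median was -0.10. With TMM the 2 medians were 0.03 and 0.01.

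To test the rise in libraries the rule had not used, the rule was applied in one experiment and the change tested in the other. The 200 transcripts chosen in the 10F controls alone shared 89 members with the late transcripts. In the 6F controls 156 of them were higher at 48 than at 0 hpa and none was lower at an adjusted p under 0.05 (edgeR quasi-likelihood test, with 16% of all transcripts called higher and 15.8% lower), with a median log2 change of 0.78. This comparison crosses the library split, since the 6F controls at 48 hpa stood apart and those at 0 hpa did not. Time and the split cannot be told apart in it. The 10F controls all lay on the same side of the split. Of the 200 chosen in the 6F controls alone, 186 were tested in the 10F controls, where 117 were higher and 11 lower (20.4% of all transcripts called higher and 23.3% lower), with a median of 0.61.

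**Figure D1:**
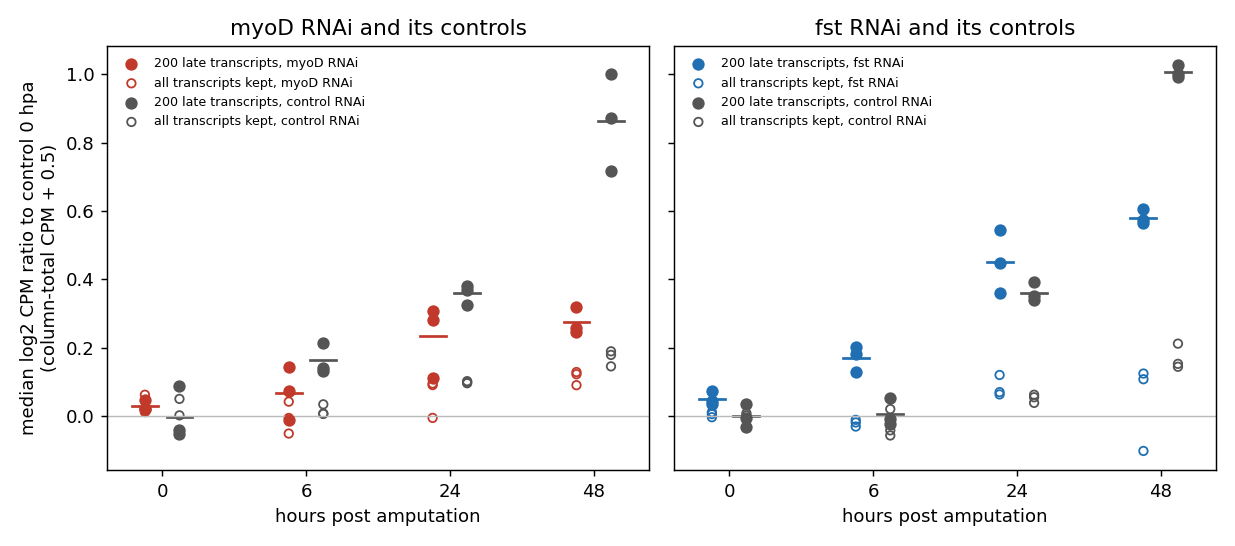
Median log2 CPM ratio to the control mean at 0 hpa in each library (y axis) by hours post amputation (x axis), for the 200 late transcripts (filled) and all 16183 transcripts with enough CPM (open), with the RNAi libraries left of their controls. Each point is 1 library and each bar the mean of 3. At 48 hpa the late transcripts sat between 0.25 and 0.32 after myoD RNAi, below the controls at 0.72 to 1.0, and between 0.56 and 0.61 after fst RNAi, below the controls at 0.99 to 1.03.

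After myoD RNAi most late transcripts were below control at 48 hpa, and their levels were only a little above those of 0 hpa. The median late transcript in a library, relative to the 10F control mean at 0 hpa, had log2 ratios of 0.25, 0.26 and 0.32 in the 3 myoD RNAi libraries at 48 hpa, against 0.72, 0.87 and 1.0 in the controls. At 24 hpa it had 0.11, 0.28 and 0.31 after myoD RNAi and 0.33, 0.37 and 0.38 in the controls. The groups did not overlap at either time, and they lay far closer at 24 hpa. At 0 hpa the myoD RNAi libraries had 0.02, 0.02 and 0.05, all below those at 48 hpa. Over all 16183 transcripts the median at 48 hpa lay between 0.09 and 0.13 after myoD RNAi and between 0.15 and 0.19 in the controls. At 24 hpa it lay between -0.006 and 0.095 after myoD RNAi and between 0.096 and 0.102 in the controls. These groups did not overlap either, so the lack of overlap was not particular to the late transcripts.

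Of the 191 late transcripts with enough counts for the fit of the 10F experiment, 136 (71.2%) were lower after myoD RNAi than in controls at 48 hpa, and 0 were higher, also at an unadjusted p under 0.05 and with DESeq2. By adjusted p in edgeR, 12.9% of all 17527 transcripts tested were lower and 12.7% higher. The median log2 fold change was -0.58 for the late transcripts and 0.01 for all transcripts, 189 of the 191 lay below 0, and 20 fell at least 2-fold. In 164 of the 191 the 3 myoD RNAi libraries lay below all 3 controls, against 26.2% of all transcripts. The rule selects transcripts high in these controls at 48 hpa. For the transcripts chosen in the 6F controls alone, which leaves the 10F libraries unused, the count was 94 lower of 186 (50.5%) and 1 higher. Leaving out each of the 6 libraries in turn gave between 96 and 145 transcripts lower.

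Among well-counted members, dd_Smed_v4_5102_0_1 shows the pattern at its plainest, and was chosen for description after its values were seen. It had 17.2, 18.1 and 19.2 CPM in the myoD RNAi libraries at 48 hpa, against 50.9, 49.7 and 30.7 CPM in the controls. The 0 hpa libraries had 18.0, 15.9 and 17.3 CPM after myoD RNAi and 16.9, 16.7 and 18.6 CPM in controls. The level at 48 hpa after myoD RNAi was thus that of fresh wounds. The log2 fold change against control at 48 hpa was -1.18 with a standard error (SE) of 0.12 and an adjusted p of 3.29e-08, a 2.26-fold difference.

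The largest falls whose groups did not overlap were in sparsely counted transcripts. For dd_Smed_v4_35892_0_1 the myoD RNAi libraries had 0.369, 0.227 and 0.298 CPM at 48 hpa, against 1.87, 1.47 and 1.09 CPM in controls. Its log2 fold change was -2.16 (SE 0.39, adjusted p = 8.88e-05). For dd_Smed_v4_17951_0_1 the values were 0.105, 0.152 and 0.298 CPM after myoD RNAi, against 0.935, 0.953 and 0.820 CPM in controls, and the log2 fold change was -2.22 (SE 0.53, adjusted p = 0.0022). Both groups of 3 were well apart in each transcript, though these levels rest on few reads. The 55 late transcripts that were not called had a median log2 fold change of -0.38, and 53 of them lay below 0. Their median level in the controls at 48 hpa was 4.58 CPM, against 12.1 CPM for the 136 that fell, and their median SE was 0.20 against 0.13.

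**Figure D2:**
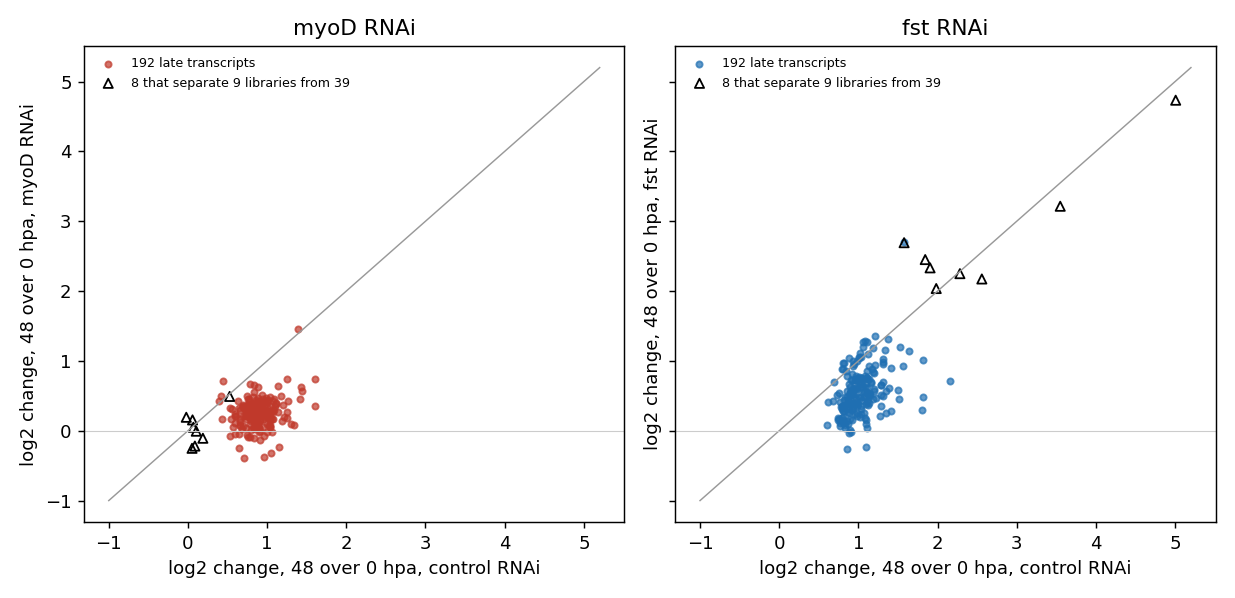
Log2 ratio of mean CPM (+ 0.5) at 48 over 0 hpa of each late transcript after RNAi (y axis) against that in the controls of the same experiment (x axis), for myoD RNAi on the left and fst RNAi on the right, with the diagonal of equal rise. Under myoD RNAi 194 of the 200 points lie below the diagonal and the median is 0.24 against 0.85 in controls; under fst RNAi 175 lie below it and the median is 0.54 against 1.01. The rule selected for a high ratio in these controls, which favours points below the diagonal. Triangles mark the 8 transcripts that separate 9 libraries from 39.

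The myoD RNAi libraries did not enter the rule, so the change between times within them was free to differ. Between 0 and 48 hpa the median log2 fold change of the 191 transcripts was 0.20, and 24 (12.6%) rose while 0 fell. At an unadjusted p under 0.05 there were 55 higher and 2 lower, and DESeq2 called 20 higher and none lower. By adjusted p in edgeR, 4.2% of all transcripts rose and 6.1% fell. The count of 24 rested on every library, since leaving out any of the 6 gave between 9 (without replicate 2 at 0 hpa) and 15 (without replicate 3 at 48 hpa). Between 0 and 24 hpa 33 rose (17.3%), against 9.26% of all transcripts, with a median of 0.20, and 21 rose without replicate 2 at 24 hpa. Between 24 and 48 hpa, a comparison added after the data were seen, 2 were higher and 9 lower, against 5.33% and 6.51% of all transcripts, with a median of 0.03. Of the 191, 118 (61.8%) were lower than control at 48 hpa and not called between 0 and 48 hpa, against 11% of all transcripts, and 18 (9.42%) were lower than control and yet had risen, against 1.47%. Both classes use the controls at 48 hpa, which the rule selected to be high, so larger shares of late transcripts are favoured by the choice. The classes were not formed for transcripts chosen in the 6F controls alone.

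Ratios of mean CPM had 0.5 added, which lowers the rise of sparse transcripts. After myoD RNAi dd_Smed_v4_28887_0_1, for example, had 4 counts at 0 hpa and 21 at 48 hpa over the group. By this measure the single late transcript that kept a log2 ratio of at least 0.8 after myoD RNAi was dd_Smed_v4_6938_0_1. It had 14.8, 14.6 and 6.99 CPM in the myoD RNAi libraries at 48 hpa, against 12.6, 10.5 and 9.98 CPM in controls. The 0 hpa libraries had 4.52, 4.03 and 3.75 CPM after myoD RNAi and 4.24, 3.53 and 3.86 CPM in controls. It rose between 0 and 48 hpa after myoD RNAi by 1.49 on the log2 scale (SE 0.23, adjusted p = 0.000174), and at 48 hpa its groups overlapped (0.23, SE 0.21, adjusted p = 0.461). After fst RNAi its level was below control at all 4 times, by -0.69 at 0 hpa (SE 0.20, adjusted p = 0.115), -0.76 at 6 hpa (SE 0.19, adjusted p = 0.0536), -1.16 at 24 hpa (SE 0.21, adjusted p = 0.00357) and -0.81 at 48 hpa (SE 0.20, adjusted p = 0.0132, and 0.0518 without the library labelled as contaminated). Its change from 0 to 48 hpa differed between fst RNAi and control by -0.12 (SE 0.28, adjusted p = 0.878).

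The largest fitted rise after myoD RNAi was that of dd_Smed_v4_17951_0_1, which had 0 counts in all 3 libraries at 0 hpa and 8 counts in all at 48 hpa. Set against a floor of 3 counts over the group, it was at least 3.23-fold higher at 48 hpa. Its call (adjusted p = 0.0287) was lost without any 1 of the 3 libraries at 0 hpa or without replicate 3 at 48 hpa.

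The change from 0 to 48 hpa was itself compared between myoD RNAi and control. It was smaller after myoD RNAi in 70 of the 191 transcripts (36.6%) and larger in 0 by edgeR, with 0 larger also at an unadjusted p under 0.05 and with DESeq2. Over all transcripts 6.82% had a smaller and 6.09% a larger change by adjusted p in edgeR. The median difference was -0.55 on the log2 scale. For the transcripts chosen in the 6F controls alone it was smaller in 45 of 186 (24.2%) and larger in 2.

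Before 48 hpa few late transcripts were called after myoD RNAi. At 0 hpa 2 were lower, at 6 hpa 1 and at 24 hpa 6 (3.14%), with none called higher at these times by edgeR; at an unadjusted p under 0.05 there were 9, 16 and 32 lower and 3, 2 and 3 higher at 0, 6 and 24 hpa, and DESeq2 called 2, 1 and 5 lower and 0, 0 and 1 higher. Of all transcripts, 0.542% were lower and 0.0456% higher at 0 hpa by adjusted p in edgeR. At 6 hpa 0.365% of them were lower and 0.2% higher, and at 24 hpa 3.37% lower and 2.48% higher. The share of late transcripts lower at 24 hpa was thus close to that of all transcripts. The median log2 fold change was -0.01, -0.08 and -0.09 at 0, 6 and 24 hpa. Without replicate 1 of the controls at 24 hpa, 3 were lower at that time, and at 0 hpa 1 was lower without myoD RNAi replicate 1 or 2 or control replicate 2.

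The exception was dd_Smed_v4_10216_0_1, which was lower at all 4 times. At 0 hpa it had 3.61, 2.91 and 2.11 CPM after myoD RNAi, against 6.54, 6.91 and 7.26 CPM in controls. At 24 hpa it had 3.33, 3.97 and 3.41 CPM, against 9.96, 10.2 and 10.1 CPM. At 48 hpa it had 3.16, 2.96 and 2.75 CPM, against 14.6, 11.7 and 11.5 CPM. The groups did not overlap at any of these times, and the gap was widest at 48 hpa. Its log2 fold change was -1.30 (SE 0.15, adjusted p = 1.56e-06) at 0 hpa, -1.19 (SE 0.13, adjusted p = 2.09e-06) at 6 hpa, -1.45 (SE 0.14, adjusted p = 5.15e-08) at 24 hpa and -1.99 (SE 0.14, adjusted p = 5.99e-12) at 48 hpa. The other transcript lower at 0 hpa was dd_Smed_v4_18393_0_1 (-0.81, SE 0.17, adjusted p = 0.0136), which was also lower at 24 hpa (-1.24) and 48 hpa (-1.62). At 48 hpa it had 2.95, 4.17 and 3.50 CPM after myoD RNAi, against 12.1, 11.6 and 10.6 CPM in controls, with no overlap. After fst RNAi it had 8.65, 6.10 and 6.29 CPM, against 13.5, 15.3 and 13.7 CPM in the 6F controls, a smaller gap (-0.89, SE 0.19, adjusted p = 0.00374). Its effects under myoD and fst RNAi differed by -0.73 (SE 0.26, adjusted p = 0.213), which did not pass the test. It was chosen for mention after its values were seen.

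**Figure D3:**
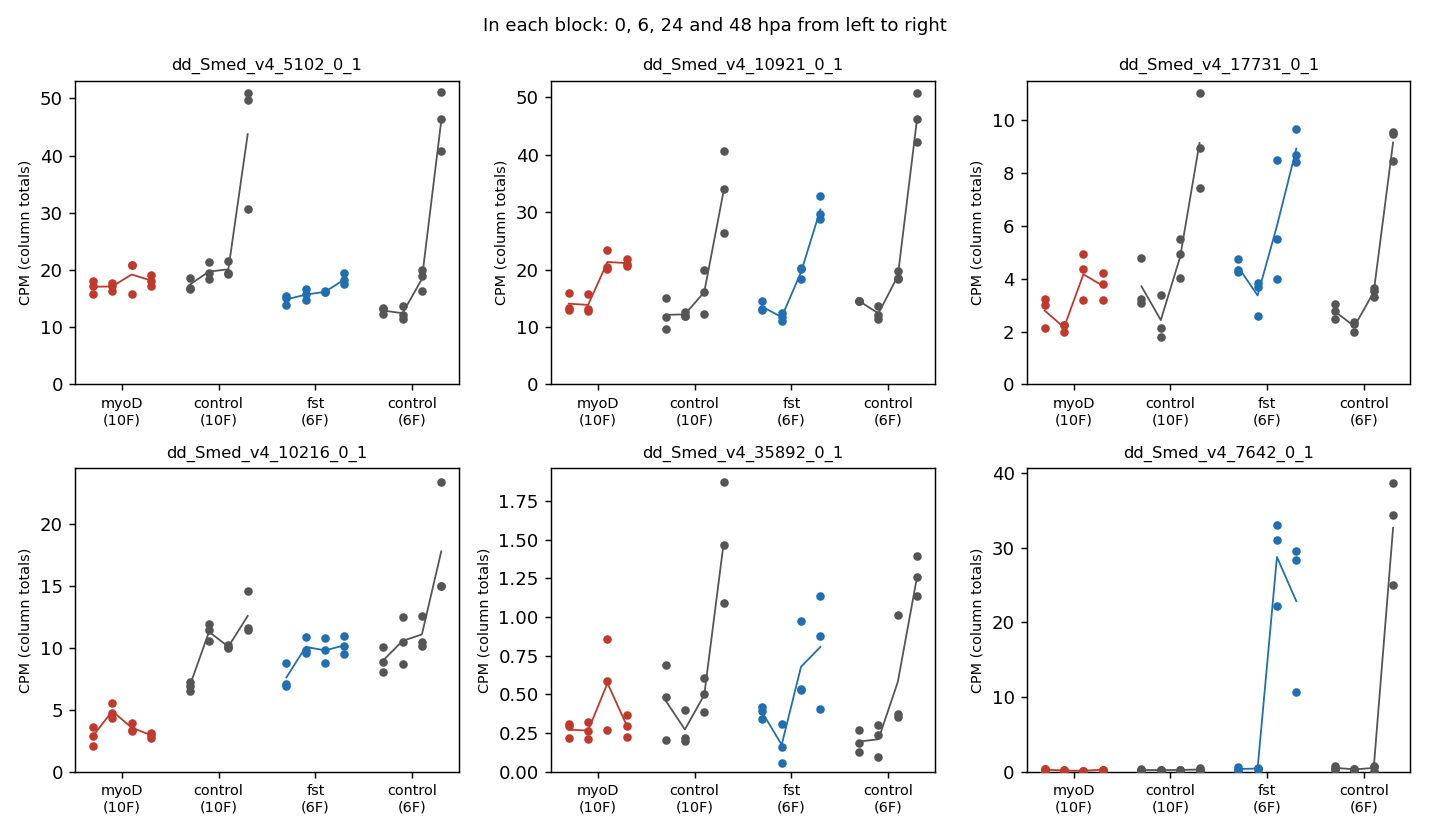
CPM of 6 late transcripts (y axis, from 0, a separate scale for each) in every library, with each RNAi group left of its controls and 0, 6, 24 and 48 hpa running left to right within a block. Points are libraries and lines join the means of 3. dd_Smed_v4_5102_0_1 sits between 17.2 and 19.4 CPM at 48 hpa after either RNAi treatment, below all controls at that time, dd_Smed_v4_17731_0_1 reaches 8.43 to 9.65 CPM after fst RNAi and 3.18 to 4.22 CPM after myoD RNAi at 48 hpa, and dd_Smed_v4_7642_0_1 is high in 9 libraries of the 6F experiment.

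After fst RNAi the late transcripts reached levels between those of 0 hpa and those of controls. The median late transcript, relative to the 6F control mean at 0 hpa, had log2 ratios of 0.56, 0.57 and 0.61 in the fst RNAi libraries at 48 hpa, against 0.99, 1.0 and 1.03 in the controls. At 24 hpa it had 0.36, 0.45 and 0.54 after fst RNAi and 0.34, 0.35 and 0.39 in the controls, and these groups overlapped. The medians over all transcripts at 48 hpa lay between -0.10 and 0.12 after fst RNAi and between 0.14 and 0.21 in controls.

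Of 199 late transcripts tested, 44 (22.1%) were lower after fst RNAi than in controls at 48 hpa and 0 were higher, while 3.6% of all 17815 transcripts were lower and 3.7% higher. An unadjusted p under 0.05 was reached by 84 lower and 3 higher, and DESeq2 called 3 higher and 45 lower in all. The median log2 fold change was -0.33, against 0.00 over all transcripts, and 5 fell at least 2-fold. In 106 of the 199 the 3 fst RNAi libraries lay below all 3 controls, against 18.8% of all transcripts. With only the other 2 fst RNAi libraries these were 145 and 25.8%. Without the library labelled as contaminated, 1 late transcript was called higher by edgeR, dd_Smed_v4_508_0_1 (0.47, SE 0.12, adjusted p = 0.0126). The 200 transcripts chosen in the 10F controls alone, which leaves the 6F libraries unused, gave 46 lower (23%) and 0 higher, and 53 lower and 1 higher without the library labelled as contaminated. All 9 libraries that stood apart lie outside this choice, and the comparison at 48 hpa is between libraries on the same side of that split. Without the 8 separating transcripts the count was 44 of 191.

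The count of 44 moved widely with the libraries in the fit. With only the 6 libraries compared in the fit, 3 late transcripts were called, and the cause of that drop was not tested. Without replicate 2 of the controls it was 26, without replicate 1 of the controls 29, and without the library labelled as contaminated 55. The authors' deposited table gives 11 late transcripts lower after fst RNAi at 48 hpa at an adjusted p under 0.05, and 115 lower after myoD RNAi.

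dd_Smed_v4_5102_0_1 was lower at 48 hpa after fst RNAi as well. It had 18.2, 19.4 and 17.5 CPM at 48 hpa after fst RNAi, against 40.9, 46.4 and 51.0 CPM in controls. Its log2 fold change was -1.20 (SE 0.11, adjusted p = 5.7e-08; -1.26 without the library labelled as contaminated). At 0 hpa it had 13.9, 15.5 and 15.1 CPM after fst RNAi, against 12.3, 13.1 and 13.3 CPM in controls, so the fst RNAi libraries at 48 hpa lay above those at 0 hpa. That change was 0.25 (SE 0.11, adjusted p = 0.117). In the joint fit its effects under myoD and fst RNAi differed by 0.01 (SE 0.17). The largest fall with no overlap was that of dd_Smed_v4_28887_0_1, at 0.251, 0.827 and 0.406 CPM after fst RNAi and 2.56, 2.20 and 1.95 CPM in controls (-2.02, SE 0.43, adjusted p = 0.00393; 0.0694 with only the 6 libraries compared in the fit). Next was dd_Smed_v4_44202_0_1, at 0.501, 0.517 and 0.406 CPM after fst RNAi and 1.33, 1.89 and 0.976 CPM in controls. Its log2 fold change was -1.45 (SE 0.42, adjusted p = 0.0334), and the call was lost without any 1 of 5 of the 6 libraries, all but replicate 3 of the controls. Both are sparsely counted, and both also fell after myoD RNAi at 48 hpa, by 1.56 and 1.67 on the log2 scale.

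Within the fst RNAi libraries, 105 of 199 late transcripts (52.8%) rose between 0 and 48 hpa and 0 fell, against 10.6% of all transcripts that rose and 9.77% that fell, with a median log2 fold change of 0.59. This comparison, like that between 0 and 24 hpa, crosses the library split. The rule used the 6F controls at 48 hpa, which lie on the same side as the fst RNAi libraries at 48 hpa. The choice thus favours a rise here. The share that rose to 48 hpa was lower for transcripts chosen in the 10F controls alone, as given with the processing settings. Without the 8 separating transcripts 97 of 191 rose. Leaving out the library labelled as contaminated gave 81. With only the 6 libraries compared in the fit 28 rose. Between 0 and 24 hpa 43 rose (21.6%), against 4.37% of all transcripts, and 36 of 191 without the separating ones. That count was 16 without replicate 3 at 24 hpa and 20 to 24 without any 1 of the libraries at 0 hpa. Between 24 and 48 hpa, on the same side of the split, 7 rose (3.52%) and 0 fell, against 0.438% of all transcripts that rose and 0.64% that fell, with a median of 0.19, and 6 rose without the library labelled as contaminated. For the falls, the count at an unadjusted p under 0.05 was 0 between 0 and 48 hpa and 1 between 24 and 48 hpa, and DESeq2 called 0 at each.

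dd_Smed_v4_10921_0_1, chosen after its values were seen, shows such a partial rise. At 48 hpa it had 32.8, 28.8 and 29.7 CPM after fst RNAi, against 42.2, 46.2 and 50.8 CPM in controls, and at 0 hpa 13.1, 14.5 and 12.9 CPM after fst RNAi, against 14.5, 14.6 and 14.5 CPM. It rose within the fst RNAi libraries by 1.12 (SE 0.11, adjusted p = 4.97e-07) and stood below control at 48 hpa by -0.47 (SE 0.11, adjusted p = 0.00688). Without the library labelled as contaminated both calls held, at 0.99 and -0.60. The largest fitted rise within the fst RNAi libraries was that of dd_Smed_v4_16554_0_1, a separating transcript with 0 counts at 0 hpa and 58 at 48 hpa in all 3 libraries together. Against the floor of 3 counts it was at least 33.0-fold higher at 48 hpa.

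The change from 0 to 48 hpa was smaller after fst RNAi than in controls in 7 of 199 transcripts (3.52%) and larger in 0 by edgeR, with 0 larger also at an unadjusted p under 0.05 and with DESeq2. Over all transcripts 0.926% had a smaller and 0.629% a larger change by adjusted p in edgeR. The median difference was -0.39. The rule selects transcripts with a large rise in these controls, which favours a smaller change after RNAi. For the transcripts chosen in the 10F controls alone it was smaller in 10 of 200 (5%) and larger in none, and smaller in 23 without the library labelled as contaminated. The count of 7 moved widely, to 19 without the library labelled as contaminated and to 2 without replicate 2 of the controls at 48 hpa, replicates 2 or 3 of the controls at 0 hpa or replicates 2 or 3 of fst RNAi at 0 hpa. It was 3 without replicate 3 of the controls at 48 hpa and 4 without replicate 1 of fst RNAi at 0 hpa or replicate 1 of the controls at 48 hpa.

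Before 48 hpa, 0 late transcripts differed after fst RNAi at 0 hpa in the edgeR test (0.387% of all transcripts higher and 0.258% lower). An unadjusted p under 0.05 was reached by 17 that were higher and 9 that were lower, and DESeq2 called 1. At 6 hpa 1 was higher and none lower, against 0.421% and 0.561% of all transcripts, and 2 were higher without replicate 3 of the controls. The 1 was dd_Smed_v4_28487_0_1, with 1.43, 1.55 and 2.01 CPM after fst RNAi and 0.599, 0.188 and 0.655 CPM in controls (1.66, SE 0.36, adjusted p = 0.0219), a call lost without any 1 of 4 of the 6 libraries: replicates 1 and 2 of the controls and replicates 2 and 3 of fst RNAi. At 24 hpa 8 were higher and 1 lower, against 0.544% and 0.298% of all transcripts. Of the 8, 7 were separating transcripts, led by dd_Smed_v4_28185_0_1 with 4.32, 4.54 and 5.23 CPM after fst RNAi and 0 counts in all 3 controls. It was at least 82.3-fold higher against the floor of 3 counts. At 24 hpa the fst RNAi libraries and the controls lie on different sides of the library split, so treatment and split cannot be told apart there.

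**Figure D4:**
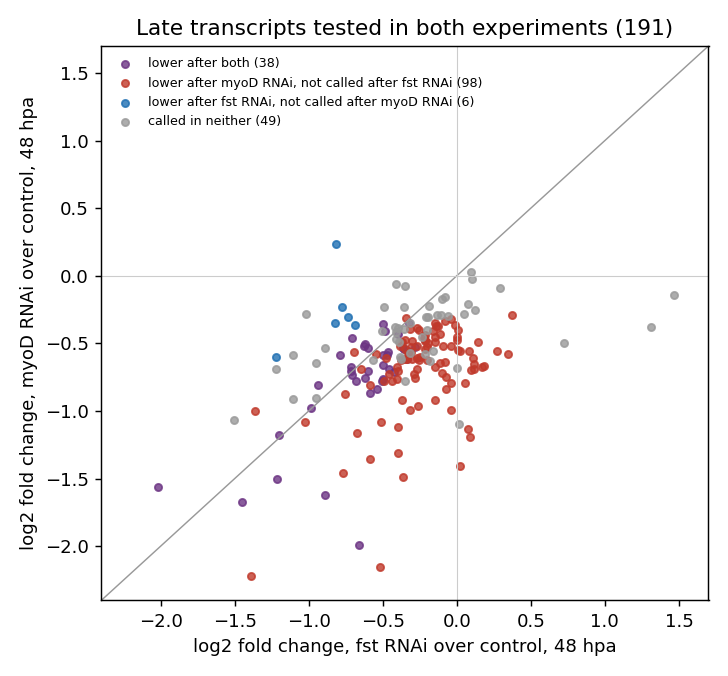
Log2 fold change against control at 48 hpa after myoD RNAi (y axis) and after fst RNAi (x axis) for the 191 late transcripts tested in both experiments, coloured by which test called them lower at an adjusted p under 0.05, with the diagonal of equal effect. Of these, 38 were lower after both, 98 after myoD RNAi and not called after fst RNAi, and 6 the other way round. Below the diagonal lie 154 points. The rule selected for high levels in these controls at 48 hpa, which favours fold changes below 0.

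Set side by side, 38 late transcripts were lower at 48 hpa after both treatments, 98 were lower after myoD RNAi and not called after fst RNAi, 6 were lower after fst RNAi and not called after myoD RNAi, and 49 were called in neither. Of the 191 these are 19.9%, 51.3%, 3.14% and 25.7%. Of the 17288 transcripts tested in both experiments the same classes held 2.9%, 10.2%, 0.769% and 72.1%. The rule selected for high levels in the controls at 48 hpa, so larger shares of late transcripts in the lower classes are favoured by the choice. The classes were not formed for transcripts chosen in the controls of 1 experiment alone. The remaining 9 were not tested in the 10F experiment, and 1 of these was tested in neither. The classes were not formed without the library labelled as contaminated, where 55 late transcripts were lower after fst RNAi. The myoD and fst experiments share no library. In 160 of the 191 both fold changes were below 0, and in 154 that of myoD RNAi was the more negative. The choice of transcripts high in these controls favours fold changes below 0, and the same counts were not made over all transcripts. Neither count is a test of a difference between the treatments. By CPM, the ratio of 48 over 0 hpa was at or under 0 for 22 of the 200 late transcripts after myoD RNAi and for 4 after fst RNAi, with or without the library labelled as contaminated. It reached 0.8 for 1 after myoD RNAi, against 128 in the 10F controls, and for 47 after fst RNAi, against 183 in the 6F controls. The rule set 0.8 as its limit on the average of these controls, so a larger count in the controls is favoured by the choice. Levels at 48 hpa were above those at 24 hpa for 120 after myoD RNAi and for 142 after fst RNAi. Without the library labelled as contaminated, 36 reached 0.8 and 159 were above 24 hpa after fst RNAi.

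The 191 transcripts are not replicates and were all chosen for a high ratio at 48 hpa averaged over both control sets. Across them the Pearson correlation of the effects was 0.42 (0.40 over the 189 that do not separate libraries). The 38 lower after both had a median log2 ratio of 48 over 0 hpa of 0.21 after myoD RNAi against 0.92 in the 10F controls, and of 0.38 after fst RNAi against 0.96 in the 6F controls. The 98 had 0.21 after myoD RNAi against 0.87 in the 10F controls, and 0.60 after fst RNAi against 1.0 in the 6F controls.

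A call in 1 experiment and not in the other is no test of a difference, since the 10F fit also had the smaller spread, with a biological coefficient of variation of 8.34% against 13% in the 6F fit. In a joint fit of all 48 libraries, the effects at 48 hpa differed in 5 of the 200 late transcripts (2.5%), all more negative under myoD RNAi, against 0.357% of all 18230 transcripts, with 0.165% the other way. None was more negative under fst RNAi, while 1 was at an unadjusted p under 0.05 and DESeq2 called 0. The median difference was -0.26. The count was 0 with only the 12 libraries compared in the fit, 15 without replicate 3 and 17 without replicate 2 of fst RNAi at 48 hpa, 3 without its replicate 1, and 8 without replicate 3 of the 10F controls. It was 1 without myoD RNAi replicate 2 or replicate 1 of either control group, 2 without replicate 2 of either control group, and 3 without myoD RNAi replicate 1 or 3. The number of feedings also differed between the experiments, so the target gene and the feeding schedule cannot be told apart.

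The most negative difference was that of dd_Smed_v4_10216_0_1, at -1.34 (SE 0.23, adjusted p = 0.000861; 0.141 with only the 12 libraries in the fit). At 48 hpa it had 10.1, 11 and 9.54 CPM after fst RNAi, against 15.0, 15.0 and 23.4 CPM in the 6F controls, and the log2 fold change was -0.66 (SE 0.17, adjusted p = 0.0191). dd_Smed_v4_17731_0_1, chosen after its values were seen, was the second most negative. It had 4.22, 3.18 and 3.79 CPM after myoD RNAi at 48 hpa, against 11, 8.94 and 7.45 CPM in the 10F controls, and 9.65, 8.68 and 8.43 CPM after fst RNAi, against 8.44, 9.54 and 9.48 CPM in the 6F controls. It fell after myoD RNAi (-1.19, SE 0.19, adjusted p = 1.63e-05), and after fst RNAi its groups overlapped (0.09, SE 0.19, adjusted p = 0.825; -0.03 without the library labelled as contaminated). The difference was -1.29 (SE 0.28, adjusted p = 0.015; -1.16 and 0.0469 without the library labelled as contaminated). At 0 hpa, however, it had 4.31, 4.76 and 4.24 CPM after fst RNAi, against 2.48, 2.76 and 3.03 CPM in controls, a log2 fold change of 0.69 that did not pass the test (SE 0.20, adjusted p = 0.136). The corresponding values were 0.61 at 6 hpa and 0.76 at 24 hpa (adjusted p = 0.2 and 0.0656). Its change from 0 to 48 hpa was smaller than in controls by -0.60 after fst RNAi (SE 0.28, adjusted p = 0.32) and by -0.74 after myoD RNAi (SE 0.29, adjusted p = 0.0863), neither of which passed the test.

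**Figure D5:**
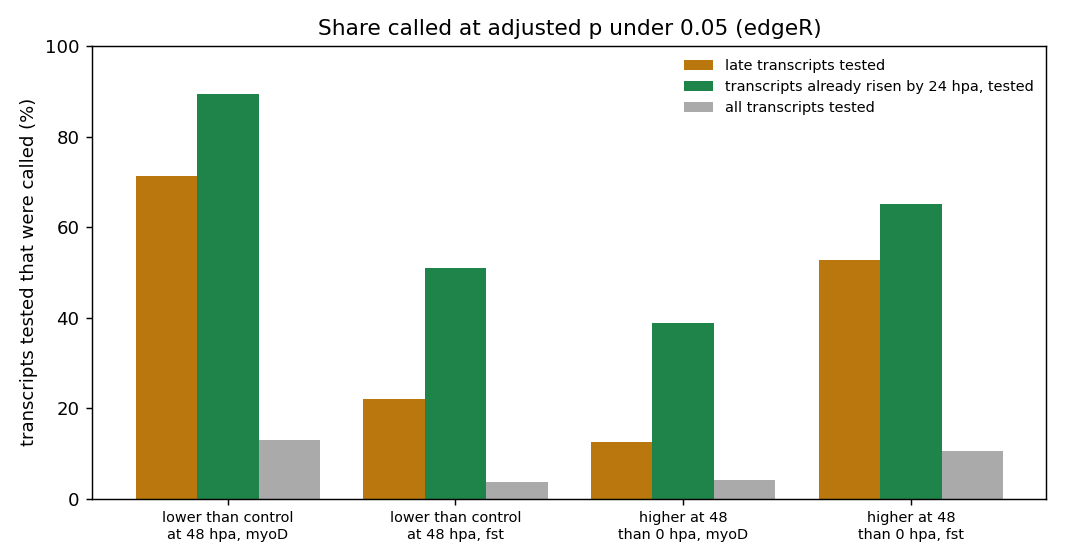
Percent of tested transcripts called by edgeR at an adjusted p under 0.05 (y axis, from 0) in 4 comparisons, for the late transcripts, for 200 transcripts already risen by 24 hpa, and for all transcripts tested. Lower at 48 hpa were 71.2%, 89.4% and 12.9% after myoD RNAi and 22.1%, 51% and 3.6% after fst RNAi.

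The late transcripts were set beside 200 transcripts with the same limits at 6 and 48 hpa that had already reached an average ratio of at least 0.5 at 24 hpa. The lists are split by the control level at 24 hpa, so a larger shortfall against these controls in the earlier list is favoured by the choice. At 24 hpa, 3.14% of the late transcripts and 68 of 198 (34.3%) of the earlier ones were lower after myoD RNAi, with medians of -0.09 and -0.37. At 48 hpa the median log2 fold change after myoD RNAi was -0.58 for the late transcripts and -0.91 for the earlier ones, of which 177 of 198 (89.4%) were lower. After fst RNAi it was -0.33 for the late transcripts and -0.54 for the earlier ones, of which 102 of 200 (51%) were lower and 1 higher. The change from 0 to 48 hpa was smaller after myoD RNAi in 36.6% of the late and 68.2% of the earlier transcripts, and smaller after fst RNAi in 3.52% of the late and 31% of the earlier. The earlier transcripts also had the larger change in controls (median 1.24 against 0.74 in the 10F controls), and the difference between the lists was not tested. With both lists chosen in the 6F controls alone, which leaves the 10F libraries unused, 9 of 186 late (4.84%) and 59 of 200 earlier transcripts (29.5%) were lower after myoD RNAi at 24 hpa, with medians of -0.03 and -0.37, and 50.5% and 81% at 48 hpa. With both chosen in the 10F controls alone, 23% of the late and 54% of the earlier transcripts were lower after fst RNAi at 48 hpa.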

How the data were processed

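Polyadenylated RNA was sequenced with a stranded kit, per the labels. Bowtie 1.1.1, cutadapt 1.8, CASAVA, SAMtools and DESeq were used, per the submitters' processing notes. The sources used here do not give the genome or transcriptome build. The authors deposited whole-number counts per transcript for 48 libraries. Per the file headers, their comparison tables hold normalised mean signal, a fold ratio, a log2 fold change and p-values, used here only where named. The transcript dd_smedV4_0_0_1 took 4.19% to 11.6% of the counts and was kept.

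The late transcripts, the comparison list and the named transcripts were chosen with earlier results of these data known. The membership rule used CPM from column totals. Counts were tested with edgeR 4.0.16 (filterByExpr, TMM, robust glmQLFit and glmQLFTest, R 4.3.3), with 1 coefficient for each group, in 24 libraries of each experiment or all 48 for the difference between the RNAi effects. P-values were adjusted by Benjamini-Hochberg over all transcripts tested and called under 0.05. The fit was checked on simulated counts. DESeq2 1.42.0, other scaling, no filter, only the groups compared, a replicate block, left-out libraries and other membership rules were tried. Named were the late transcripts with the highest ratio at 48 hpa and those at the limit, the largest non-overlapping changes against control at 48 hpa, the largest change between 0 and 48 hpa in each RNAi group, the smallest p against control at earlier times and the extremes of the difference between the RNAi effects. Others are said to be chosen after their values were seen. The floor for a group at 0 counts was 3 counts over the group, which covers counting error only.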

Additional observations from a re-analysis of the deposited data

Results flagged for a closer look

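The effects of myoD and fst RNAi at 48 hpa differed by a direct test in 5 late transcripts. Besides dd_Smed_v4_10216_0_1 and dd_Smed_v4_17731_0_1, these were dd_Smed_v4_12073_0_1 (difference -0.85, SE 0.21, adjusted p = 0.0444), dd_Smed_v4_13685_0_1 (-0.69, SE 0.17, adjusted p = 0.0487) and dd_Smed_v4_508_0_1 (-0.67, SE 0.16, adjusted p = 0.0391) in edgeR. Without the library labelled as contaminated, dd_Smed_v4_12073_0_1 and dd_Smed_v4_13685_0_1 lost the call (adjusted p = 0.221 and 0.233), and the other 3 kept it. All 5 were called lower after myoD RNAi, and 1 of them, dd_Smed_v4_10216_0_1, after fst RNAi. At 48 hpa dd_Smed_v4_13685_0_1 had 9.28, 9.02 and 9.45 CPM after myoD RNAi, against 17.4, 17.4 and 14.8 CPM in the 10F controls, and 19.9, 13.5 and 15.9 CPM after fst RNAi, against 17.5, 19.2 and 20.2 CPM in the 6F controls. With the smallest of the 5 differences, dd_Smed_v4_508_0_1 had a myoD effect of -0.29 and an fst effect of 0.37. Without the library labelled as contaminated, that fst effect was 0.47 and was called higher than control (edgeR adjusted p = 0.0126).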

How the results depend on the processing

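For 12 called comparisons of named transcripts, 129 alternative fits were run. Of these, 112 kept the call, 17 lost it and 0 reversed the sign of the fold change. Counts of late transcripts were compared by size alone. With only the groups compared in the fit, counts were 3 for myoD RNAi against control at 24 hpa (6 as reported), 28 for the rise after fst RNAi to 48 hpa (105), 3 for fst RNAi against control at 48 hpa (44), 6 at 0 hpa (0) and 2 at 6 hpa (1), 3 for the smaller change after fst RNAi (7) and 0 for the difference between the RNAi effects (5). With DESeq2 the counts for fst RNAi were 1 at 0 hpa, 3 at 6 hpa and 15 for the smaller change, and 10 for the difference. With no filter they were 2 at 6 hpa, 4 for the smaller change and 2 for the difference. Without the 8 separating transcripts, a setting added after seeing the data, 2 remained of the 9 called after fst RNAi at 24 hpa. The cause of these moves was not tested.

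With TMM-scaled CPM in the rule, 19.8% rose after myoD RNAi (12.6% as reported) and 10.2% had a smaller change after fst RNAi (3.52%). Chosen in the other experiment's controls alone, 35% rose after fst RNAi (52.8%) and 24.2% had a smaller change after myoD RNAi (36.6%).

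Leaving out each library in turn gave 9 to 15 for the rise after myoD RNAi to 48 hpa, 21 to 41 to 24 hpa, and 1 to 2, 1 and 3 to 7 against control at 0, 6 and 24 hpa. It gave 96 to 145 for myoD RNAi against control at 48 hpa and 52 to 91 for its smaller change. For fst RNAi it gave 81 to 102 for the rise to 48 hpa, 16 to 33 to 24 hpa, 26 to 55 against control at 48 hpa, 0 to 2 at 6 hpa, 7 to 10 at 24 hpa and 2 to 19 for the smaller change. It gave 1 to 17 for the difference.

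Replicate numbers are shared by the groups, but deviations of same-numbered RNAi and control libraries correlated between -0.19 and 0.21, and 8 of 24 RNAi libraries correlated best with their own number, so the numbers were not taken to pair libraries. With the replicate block, the counts were 133 for myoD RNAi and 41 for fst RNAi against control at 48 hpa, 22 and 102 for the rises to 48 hpa, and 2 for the difference. With low counts, a sparse transcript that was not called is not shown to be unchanged.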

Other observations

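In the library labelled as contaminated, replicate 1 of fst RNAi at 48 hpa, dd_Smed_v4_289_0_1 had 7454 CPM, against 1262 and 1415 CPM in the other libraries of the group and 1140, 1345 and 1759 CPM in the controls. There dd_Smed_v4_344_0_1 had 820.3 CPM, against 177 and 169 CPM in the other libraries of the group and 164, 178 and 198 CPM in the controls. Both were chosen after their values were seen, and neither was called against control at 48 hpa (adjusted p = 0.0839 and 0.0882 in edgeR).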
